A study of Mus musculus with 12 samples.

Results

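Smarcb1, Nf2, Lztr1 and Nf1 were followed across 12 mouse tumors, as 4 of the 24060 gene rows in the RNA-seq files. They were picked by name: Smarcb1 is the gene deleted in the model, and the other members are suppressors of nerve sheath tumors. The tumors arose in P0-CreC;Smarcb1 flox/flox mice on an FVB/N background, in which Cre under the P0 promoter removes Smarcb1 from neural crest cells and the Schwann lineage. By the labelled location, 4 tumors were retro-orbital, 3 were from the cheek, 3 from the meninges, 1 from the vestibular N and 1 from the trigeminal N. Each tumor carried the same 2 floxed alleles, no normal tissue was analysed here, and the age of the animals is not given in the labels. Cells of other origin within a tumor keep Smarcb1. In bulk RNA, more of such cells and more RNA per cell cannot be told apart. Levels are given in RPKM, reads scaled to gene length in kilobases and to the mapped reads of the library.

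Smarcb1 encodes a core subunit of the SWI/SNF complexes, which move nucleosomes to open chromatin. Its loss is the defining event of rhabdoid tumors, and germline variants of SMARCB1 or LZTR1 underlie schwannomatosis. Nf2 encodes merlin, which links the cell cortex to the Hippo kinases that restrain YAP and TAZ. Lztr1 encodes an adaptor of the Cul3 ubiquitin ligase that removes RAS-family GTPases, and Nf1 encodes neurofibromin, a GTPase-activating protein that switches RAS off.

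On GRCm38, Smarcb1 lies on the minus strand at chr10:75896769-75921617, with up to 9 exons in a transcript. Nf2 lies on the minus strand at chr11:4765845-4849536, with up to 17 exons. Nf1 shares that chromosome, on the plus strand at chr11:79339693-79581612, with up to 58 exons. Lztr1 lies on the plus strand at chr16:17508688-17526333, with up to 21 exons. No annotated gene overlapped Smarcb1, Nf2 or Lztr1, whereas 7 lay inside Nf1 on the opposite strand. The starts of the deleted gene and of Nf2, the classical schwannoma suppressor, are shown by the 250 bases before each RefSeq start (GRCm38.p6, 5′ to 3′ on the minus strand, CG dinucleotides in capitals):
Smarcb1, chr10:75921615-75921864: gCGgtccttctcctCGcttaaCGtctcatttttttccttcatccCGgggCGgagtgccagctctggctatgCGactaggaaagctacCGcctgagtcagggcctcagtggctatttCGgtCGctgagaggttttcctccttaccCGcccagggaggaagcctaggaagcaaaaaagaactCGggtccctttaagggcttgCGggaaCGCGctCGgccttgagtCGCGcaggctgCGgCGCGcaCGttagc
Nf2, chr11:4849545-4849794: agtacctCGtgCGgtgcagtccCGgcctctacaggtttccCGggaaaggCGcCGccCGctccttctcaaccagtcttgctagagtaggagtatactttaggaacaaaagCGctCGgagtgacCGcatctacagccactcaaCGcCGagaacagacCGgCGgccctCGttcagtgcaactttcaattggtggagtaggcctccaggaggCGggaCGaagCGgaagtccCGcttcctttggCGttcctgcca
The Smarcb1 window held 21 CG dinucleotides at a GC content of 59.6%, and the Nf2 window held 20 at 59.2%, against a median of 6 at 52.4% over 32851 RefSeq windows of the same length. RefSeq lists another Nf2 start, with 2 CG dinucleotides and a GC content of 33.6% in the window chr11:4833136-4833385, which is not printed. The GC box GGGCGG, searched on both strands, occurred 2 times before Smarcb1 and 1 time before Nf2. It was present in 32.7% of all windows. The letters CGGAAG, the core of an ETS site, occurred 1 time before Nf2 and not before Smarcb1, and were found in 13.6% of windows. TATAAA was found in neither and in 12.4% of all windows. Gene-level values do not tell which start was used.

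To see what remained of the deleted gene, Smarcb1 was examined first. It was detected in every tumor, from 70 fragments in cheek 3 to 447 in retro-orbital 3, and was the lowest of the 4 members in 12 of 12 tumors. Its level was 2.90, 4.64, 4.72 and 6.001 RPKM in retro-orbital tumors 1 to 4. It was 4.58, 3.68 and 3.20 RPKM in cheek tumors 1 to 3, and 5.15, 4.73 and 6.31 RPKM in meninges tumors 1 to 3. The lowest value, 1.70 RPKM (95% exact Poisson interval 1.35 to 2.11, from 80 fragments), was that of the vestibular N tumor, followed by 2.90 RPKM in retro-orbital 1 (2.42 to 3.44) and 2.94 RPKM in the trigeminal N tumor (2.40 to 3.56). The vestibular N interval lay below those of the other 11 tumors, while those of retro-orbital 1 and the trigeminal N tumor overlapped. These intervals cover counting error only. Over the 12 tumors Smarcb1 averaged 4.21 ± 1.36 RPKM (SD), a coefficient of variation of 32.3%, against a counting error of 4.73% to 12.0% in single tumors. Between 49.0% and 62.0% of all gene rows lay below Smarcb1 in a tumor. The exons that the floxed alleles lose are not given in the sources used here, and a value per gene over its whole length of 1657 bases does not separate transcripts that lack them from whole ones. Thus the deletion itself could not be checked from these values. The authors detected the deleted allele by PCR in every tumor of symptomatic mice, and report lost SMARCB1 staining in the tumors they examined.

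**Figure D1:**
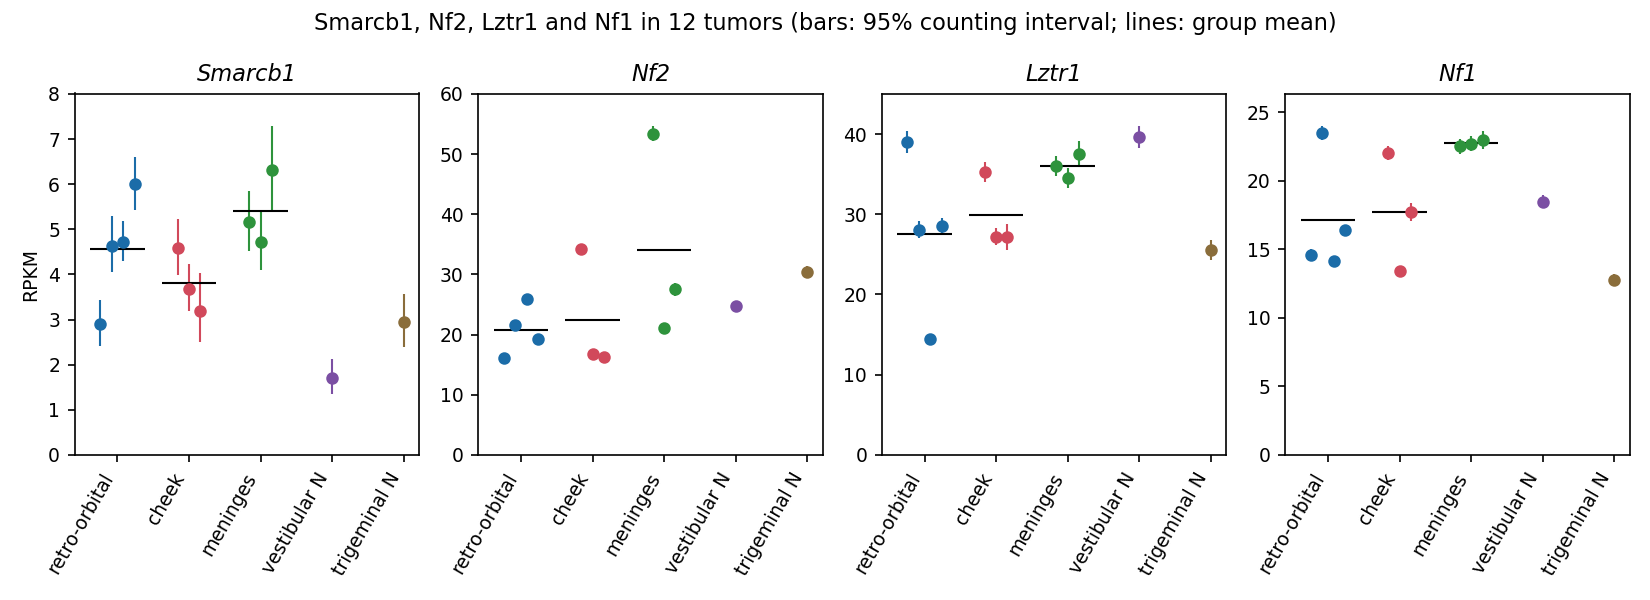
Level of each member in RPKM (linear axes from 0, scaled per gene) in the 12 tumors by location. Points are tumors with their 95% counting intervals, and lines are group means. The vestibular N tumor holds the lowest Smarcb1 value, meninges 1 the highest Nf2 value and retro-orbital 3 the lowest Lztr1 value, and the 3 meninges tumors sit together for Nf1.

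Next, Smarcb1 was set beside a chosen list of 21 partner subunits of the SWI/SNF complexes. Actl6b, Dpf1, Dpf3 and Ss18l1, which the paper reports as not expressed in these tumors, were not on the list. Smarcb1 was below all 21 in 9 of 12 tumors. In retro-orbital 2, retro-orbital 4 and meninges 3 the sole listed partner below it was Bcl7a, an accessory subunit, at 3.59, 2.21 and 5.35 RPKM. Smarcb1 stood at a median of 18.8% of the median partner of the same tumor. That share was lowest in the vestibular N tumor, at 5.59%, and highest in retro-orbital 4, at 33.2%. The vestibular N tumor also had the highest median partner, at 30.4 RPKM, and retro-orbital 2 the lowest, at 17.5 RPKM. All 21 partners were at 1 RPKM or more in every tumor. After Bcl7a (median 5.68 RPKM), the lowest was Smarcd1 with a median of 9.58 RPKM, and the highest were Ss18 at 54.8 RPKM and Smarce1 at 49.1 RPKM. The partners themselves thus differed widely in level, and no wild-type tissue was analysed here to show where an intact Smarcb1 would stand. The authors measured Smarcb1 by quantitative RT-PCR in the same RNA samples beside control brain and nerves, and those values were not used here.

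**Figure D2:**
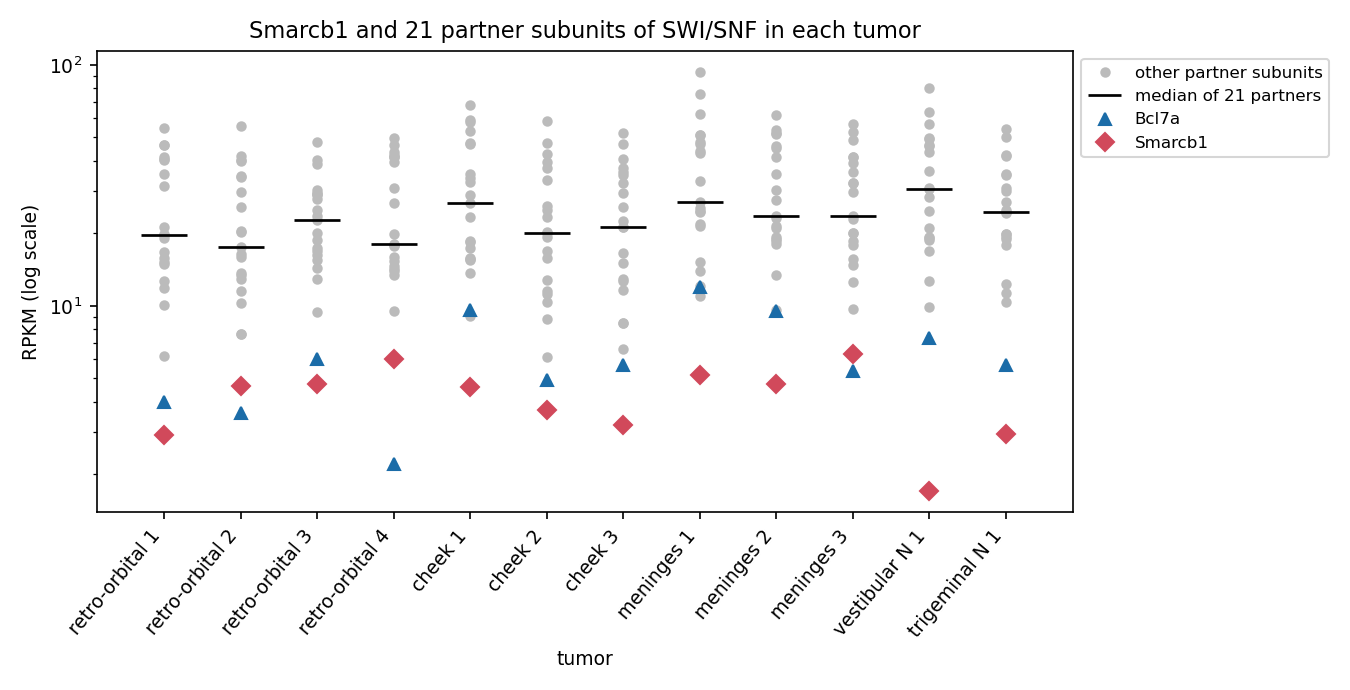
RPKM (log axis) of Smarcb1 and of 21 partner subunits in each tumor, with the partners' median as a line. Smarcb1 lies under the median partner in all 12 tumors, at 5.59% to 33.2% of it. Of the 21 listed, Bcl7a is the one partner below Smarcb1 in 3 tumors.

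Nf2 was well expressed in every tumor. Its level was 16.2, 21.6, 25.9 and 19.3 RPKM in retro-orbital tumors 1 to 4, and 34.1, 16.7 and 16.2 RPKM in cheek tumors 1 to 3. In meninges tumors 1 to 3 it was 53.4, 21.2 and 27.5 RPKM, in the vestibular N tumor 24.7 RPKM and in the trigeminal N tumor 30.3 RPKM. Meninges 1 stood highest and cheek 1 came next. The titles of these 2 tumors begin with the same identifier, although whether they came from 1 animal is not stated. Cheek 1 was well above both other cheek tumors, so that the groups overlapped. Nf2 averaged 25.6 ± 10.5 RPKM over the 12 tumors, with a coefficient of variation of 40.9%, the widest of the members.

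Lztr1 was the highest member in 9 of 12 tumors. It reached 39.0, 28.1, 14.4 and 28.6 RPKM in retro-orbital tumors 1 to 4, 35.3, 27.2 and 27.2 RPKM in the cheek tumors and 36.0, 34.5 and 37.5 RPKM in the meninges tumors. The vestibular N tumor had the highest value, 39.6 RPKM, and the trigeminal N tumor 25.6 RPKM. Retro-orbital 3 stood apart at the low end, with an interval of 13.9 to 15.0 RPKM from 2563 fragments in the deepest library. The mean was 31.1 ± 7.28 RPKM. The vestibular N tumor thus had the highest Lztr1 value and the lowest Smarcb1 value. Its Lztr1 interval (38.3 to 41.0 RPKM) overlapped that of retro-orbital 1 (37.7 to 40.3 RPKM), so the top rank was not resolved. Over the 12 tumors the pair did not pass a test of correlation.

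Nf1 varied least. It was 14.6, 23.5, 14.1 and 16.4 RPKM in retro-orbital tumors 1 to 4 and 22.0, 13.4 and 17.7 RPKM in the cheek tumors. The 3 meninges tumors lay within 22.5 to 23.0 RPKM, the vestibular N tumor was at 18.5 RPKM and the trigeminal N tumor lowest at 12.8 RPKM. The mean was 18.4 ± 4.15 RPKM, a coefficient of variation of 22.5%. On the log2(RPKM + 1) scale its SD over the tumors was 0.32, and 23.4% of the 15040 genes with at least 1 RPKM in 3 or more tumors varied less. The SD was 0.41 for Smarcb1, 0.49 for Nf2 and 0.39 for Lztr1, against a median of 0.48 over those genes. The spread of the members was thus ordinary.

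A set of 3 genes nested inside Nf1 on the opposite strand was examined, because reads from an antisense gene could add to a host unless strand was used in counting. Evi2a ranged from 3.94 RPKM in the vestibular N tumor to 25.7 RPKM in cheek 3. Omg, the oligodendrocyte myelin glycoprotein, had a median of 2.08 RPKM, with 1.01 RPKM at the lowest and 4.49 RPKM at the highest. Evi2b stayed at or below 0.116 RPKM and was listed at 0 in 3 tumors. The library kit kept strand, but whether the counting used it is not given in the sources used here.

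The order of the members within a tumor was then tested on log2(RPKM + 1), with an exact sign-flip permutation test over the 12 tumors and adjustment over the 6 pairs. Smarcb1 was lower than each other member in 12 of 12 tumors. On the log2 scale Nf2 exceeded it by 2.32 ± 0.55 (SD), Lztr1 by 2.63 ± 0.61 and Nf1 by 1.92 ± 0.40, each with adjusted p = 0.000732 in the exact permutation test, whose smallest unadjusted p is 0.000488. As ratios of RPKM, Nf2 stood at a median of 5.27 times Smarcb1, Lztr1 at 7.35 times and Nf1 at 4.58 times. Nf1 was below Lztr1 in 12 of 12 tumors, by a mean difference of -0.71 ± 0.35 (adjusted p = 0.000732, exact permutation test). It was also below Nf2 in 9 of 12, by -0.40 ± 0.47 (adjusted p = 0.00996, exact permutation test). Lztr1 and Nf2 were not separated: the difference was 0.31 ± 0.59 in favor of Lztr1 and it missed the threshold (adjusted p = 0.0933, exact permutation test). This last call turned on single tumors, since it passed without retro-orbital 3 (adjusted p = 0.0254) and without meninges 1 (adjusted p = 0.041, both exact permutation tests). The order Smarcb1, Nf1, Nf2, Lztr1 from low to high was seen in 6 tumors. In the other 6 either Nf2 lay above Lztr1, in 3 tumors, or Nf1 lay above Nf2, in 3 tumors. Levels of different genes are compared per length, and a wrong gene length would move a gene in every tumor alike. The test takes the 12 tumors as separate, although 3 identifiers occur in 2 titles each. Its p-values would be larger if tumors that share an identifier counted as 1.

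To ask whether the members followed the site of the tumor, the 3 locations with replicates were compared with limma. Of 14745 genes tested, 6 were called across locations (0.0407%), and 0 of 4 members were among them. With limma, the adjusted p was 0.62 for Smarcb1, 0.52 for Nf2, 0.59 for Lztr1 and 0.48 for Nf1. At an unadjusted p under 0.05 there were also 0 members, against 2110 of all genes. Nor was a member called in the meninges against retro-orbital comparison (0.0203% of genes called), in cheek against retro-orbital (0.0271%) or in meninges against cheek (0.0475%). In these 3 comparisons 0 members had an unadjusted p under 0.05, against 1348, 1765 and 2501 of all genes in that order.

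The estimates and their intervals were as follows on the log2(RPKM + 1) scale. Meninges minus retro-orbital was 0.22 for Smarcb1 (95% interval -0.34 to 0.79) and 0.60 for Nf2 (-0.19 to 1.39). It was 0.45 for Lztr1 (-0.18 to 1.09) and 0.41 for Nf1 (-0.07 to 0.90), beside a median of 0.13 over all genes tested. The 4 estimates had the same sign, but each interval included 0. The next comparison uses the same meninges tumors. Meninges minus cheek was 0.41 for Smarcb1 (-0.20 to 1.02), 0.56 for Nf2 (-0.28 to 1.41), 0.27 for Lztr1 (-0.41 to 0.95) and 0.37 for Nf1 (-0.16 to 0.89), where the median over all genes was 0.16. Cheek minus retro-orbital was close to 0 for Nf2, at 0.04 (-0.75 to 0.83), and for Nf1, at 0.05 (-0.44 to 0.54). For Lztr1 it was 0.18 (-0.45 to 0.82) and for Smarcb1 -0.19 (-0.75 to 0.38). Of the 12 intervals 4 reached a difference of 1 on the log2 scale and 8 excluded it, including all 3 for Nf1. These intervals take the 10 fitted tumors as separate, although some titles share an identifier. With 1 tumor per identifier, the Nf1 intervals reached 1.08 for meninges minus retro-orbital and 1.15 for meninges minus cheek. Single tumors set the size of several estimates. Meninges minus retro-orbital was 0.23 for Nf2 without meninges 1, 0.06 for Smarcb1 without retro-orbital 1 and 0.19 for Lztr1 without retro-orbital 3. Meninges minus cheek was 0.19 for Nf2 without meninges 1, 0.90 for Nf2 without cheek 1 and 0.19 for Nf1 without cheek 2. Normalization mattered for Smarcb1, whose meninges estimates fell to 0.03 against retro-orbital and 0.07 against cheek after quantile normalization.

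The call for Nf2 depended on how the shared identifiers were treated. With the title identifier as a block in limma (a random effect, chosen after seeing the data), Nf2 was called across locations (adjusted p = 0.0316) and in meninges against cheek, at 0.60 with a 95% interval of 0.29 to 0.92 (adjusted p = 0.0115). In that fit 19% of all genes were called across locations, 28.8% in meninges against cheek, 0.0203% in meninges against retro-orbital and 0.0136% in cheek against retro-orbital. Smarcb1, Lztr1 and Nf1 were called in none of them. The correlation within identifiers was estimated at 0.93 from the 2 pairs among the fitted tumors, cheek 2 with cheek 3 and cheek 1 with meninges 1, and only the second pair spans 2 locations. With 1 tumor per identifier kept instead, meninges minus cheek was 0.01 for Nf2. That fit left out cheek 3 and meninges 1, the tumor with the highest Nf2, and kept cheek 1, the next highest. The value depends on which tumor of a pair is kept, since leaving out cheek 1 alone gave 0.90.

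**Figure D3:**
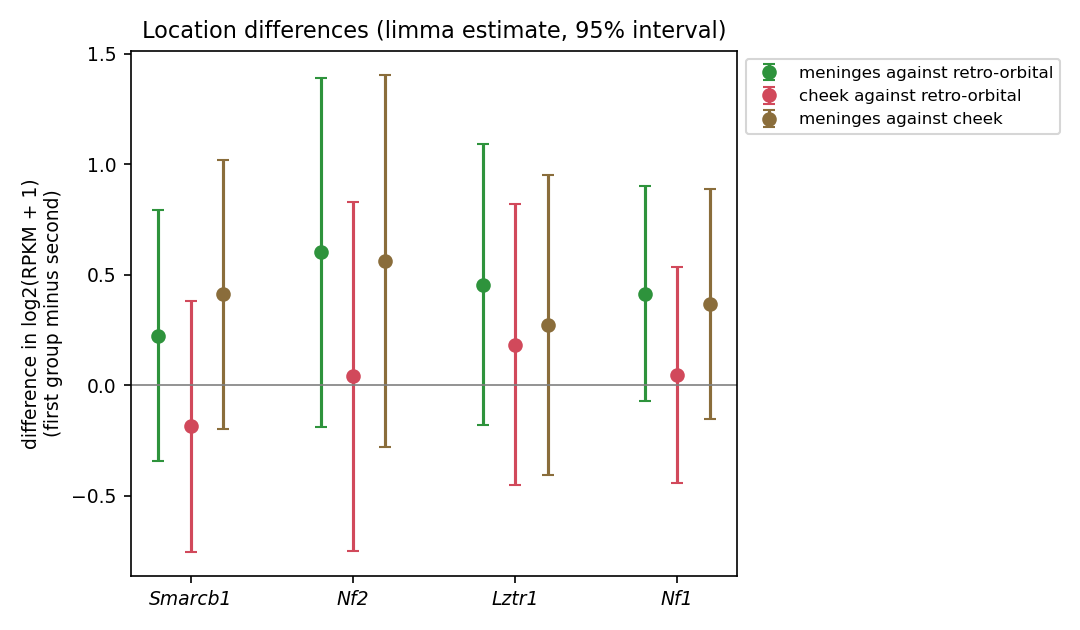
Difference in log2(RPKM + 1) between locations for each member, as the limma estimate with its 95% interval (first-named group minus second). All 12 intervals include 0. The meninges estimates lie above 0, from 0.22 to 0.60 against retro-orbital and from 0.27 to 0.56 against cheek.

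By range alone, Smarcb1 and Nf1 were higher in each of the 3 meninges tumors than in any cheek tumor. Such a separation in either direction was seen for 2 of 4 members and for 28.7% of all genes in this comparison, and 3 tumors against 3 cannot give an exact two-sided permutation p below 0.10. No member separated meninges from retro-orbital (9.23% of genes) or cheek from retro-orbital (11.1% of genes). The same groups also separated by the sums of 3 marker lists, although 0 marker genes were called. The summed RPKM of 10 Schwann cell markers was 161 to 222 in the meninges tumors and 50.7 to 66.9 in the cheek tumors. The sum of 7 neuron and astrocyte markers was 122 to 406 against 32.1 to 43.9. The astrocyte gene Gfap alone was 65.1 to 260 RPKM against 0.324 to 0.589 RPKM. Of the neuron genes on that list, Syt1 and Rbfox3 were higher in each meninges tumor than in any cheek tumor, while Snap25 and Stmn2 overlapped. The 6 endothelial markers summed to 66.9 to 93.1 against 49.95 to 61.1. Much of that difference lay in Cldn5, at 21.8 to 30.4 against 0.844 to 6.65 RPKM. Meninges minus cheek was 2.93 for Cldn5, 0.59 for Tek and 0.31 for Kdr on the log2 scale. It was -0.30 for Cdh5, -0.17 for Pecam1 and -0.07 for Emcn. The leukocyte, skeletal muscle and proliferation sums overlapped between meninges and cheek, and the retro-orbital tumors overlapped the meninges tumors in each of the 6 lists. Of the defining Schwann genes, the regulator Sox10 reached 1 RPKM in 5 of 12 tumors. The part of these cells in the member levels was not tested.

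The tumors that share an identifier were compared side by side. Cheek 2 and cheek 3 were close for Smarcb1 (3.68 and 3.20 RPKM), Nf2 (16.7 and 16.2) and Lztr1 (27.2 in both), and differed for Nf1 (13.4 and 17.7 RPKM). Cheek 1 and meninges 1 were alike for Lztr1 (35.3 and 36.0) and Nf1 (22.0 and 22.5) and differed most for Nf2, which was 1.56 times higher in meninges 1. Retro-orbital 3 and the trigeminal N tumor differed by 1.77 times for Lztr1, higher in the trigeminal N tumor, and Smarcb1 in the latter was 0.622 times that in retro-orbital 3. The pairs were separate libraries: for the closest of them, cheek 2 and cheek 3, chi-square per degree of freedom between the fragment counts was 33.9, where sampling noise alone gives about 1. The location tests gave 0 called genes, and 0 called members, when 1 tumor per identifier was kept.

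The members were also compared with each other across the 12 tumors. None of the 6 pairs passed a permutation test of correlation after adjustment. The largest Pearson r was 0.51, between Lztr1 and Nf1 (permutation p = 0.0777, adjusted p = 0.44, Spearman rho 0.47 with p = 0.129), and it was 0.48 without the 2 tumors farthest from the Lztr1 median. Smarcb1 and Nf1 gave r = 0.41 (permutation p = 0.182, adjusted p = 0.44, rho 0.48 with p = 0.123). Smarcb1 and Lztr1 gave the one negative value, r = -0.16 (permutation p = 0.614, adjusted p = 0.71, rho -0.03 with p = 0.922). It turned to 0.29 without the vestibular N tumor and retro-orbital 1. The remaining pairs, Nf2 with Smarcb1, Lztr1 and Nf1, had r of 0.25, 0.11 and 0.38.

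Each member was also set against the mean log2(RPKM + 1) of 6 marker lists, which made 24 relations. After adjustment 0 passed, with Pearson or with Spearman, and 4 had an unadjusted Pearson p under 0.05. Smarcb1 had positive coefficients with the leukocyte markers (r = 0.58, permutation p = 0.0499, adjusted p = 0.30, rho 0.53 with p = 0.0806) and the endothelial markers (r = 0.55, permutation p = 0.0624, adjusted p = 0.30, rho 0.70 with p = 0.0146), neither past the adjusted threshold. Without the 2 tumors farthest from the marker median, r with the leukocyte list was 0.51 (permutation p = 0.131). With the endothelial list it was 0.88 (permutation p = 0.00121, not adjusted) without retro-orbital 2 and meninges 2. The summed leukocyte markers ran from 365 RPKM in cheek 1 to 4958 RPKM in retro-orbital 2. That tumor, with Lyz2 of myeloid cells at 4444 RPKM, had 4.64 RPKM of Smarcb1, close to the median over the tumors of 4.61. Of the 8 leukocyte markers 6 were at 1 RPKM or more in every tumor. The summed endothelial markers were 21.8 RPKM in retro-orbital 2, 27.0 RPKM in the vestibular N tumor and 98.0 RPKM at most, in retro-orbital 3. The part of these cells in the Smarcb1 level was not tested.

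Nf2 had positive coefficients with the neuron and astrocyte markers (r = 0.65, permutation p = 0.0199, adjusted p = 0.24, rho 0.63 with p = 0.0329) and with the Schwann cell markers (r = 0.60, permutation p = 0.0372, adjusted p = 0.30, rho 0.61 with p = 0.0408). Neither passed the adjusted threshold. Without cheek 1 the first became 0.80 and passed (adjusted p = 0.0262, permutation test), whereas without the 2 tumors farthest from the marker median, meninges 1 and meninges 3, it was 0.52 (permutation p = 0.125). Lztr1 had the highest r of the 24, 0.75 with the proliferation markers (permutation p = 0.0113, adjusted p = 0.24, rho 0.42 with p = 0.175). This value rested on 2 tumors. Without retro-orbital 3, which had the lowest summed proliferation markers, and the vestibular N tumor it was 0.17 (permutation p = 0.635). For Nf1 no list gave an r beyond 0.37. The skeletal muscle markers, from 6.97 RPKM summed in meninges 2 to 523 RPKM in cheek 2, had their strongest coefficient with Nf2, r = -0.50 (permutation p = 0.0938, adjusted p = 0.38, rho -0.53 with p = 0.0786).

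**Figure D4:**
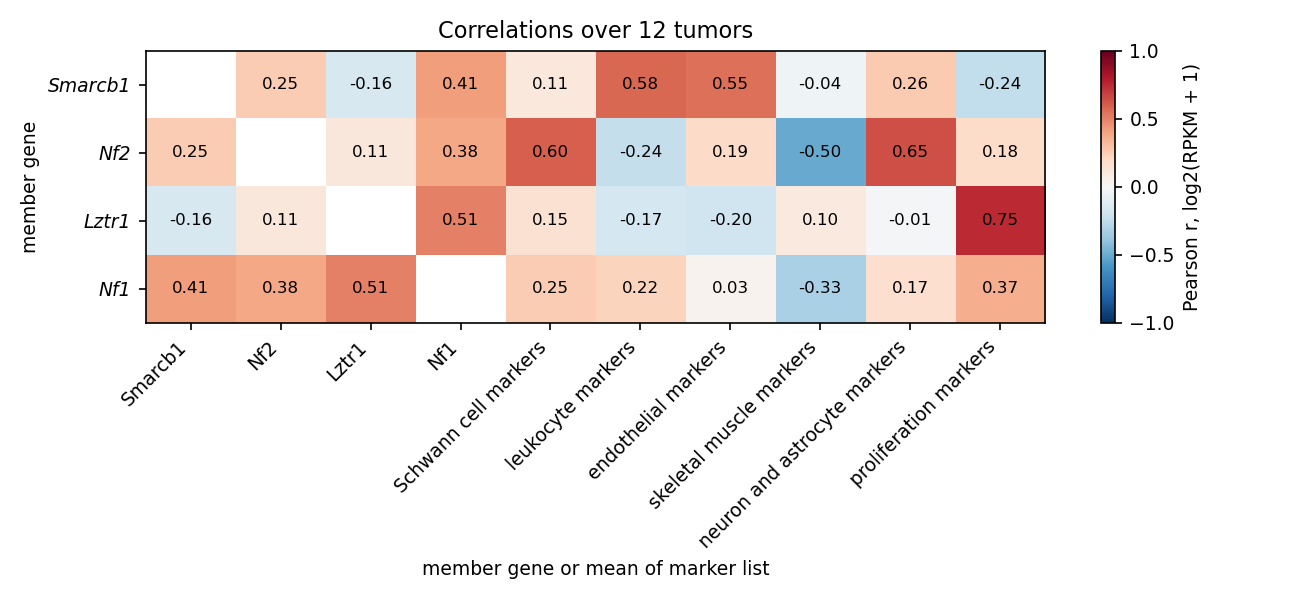
Pearson r over 12 tumors, on log2(RPKM + 1), between each member (rows) and the other members or the mean of each marker list (columns). The highest value is 0.75 for Lztr1 with proliferation markers and the lowest is -0.50 for Nf2 with skeletal muscle markers, and 0 of the 30 relations passed after adjustment.

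The genes most like each member in pattern were listed among 13293 others with a median of at least 1 RPKM, as a description. For Smarcb1 these were 4931406H21Rik (r = 0.93), Heg1 (0.87), a receptor of endothelial junctions, and Clec16a (0.86). For Nf2 they were Abca6 (0.95), Mapkbp1 (0.93) and Irf2bp1 (0.93). For Lztr1 they were A230072C01Rik (0.97), Rpp38 (0.95), a subunit of ribonuclease P, and Zfp661 (0.95). For Nf1 they were Zfp273 (0.92), Ash1l (0.89), a histone methyltransferase, and Dmpk (0.89). They were the highest of 13293 values over only 12 points, and each point is 1 library with its own depth, so no test is given.

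The pathways in which the members act were described from fixed lists. Of the 132 genes on these lists and the marker lists, 128 passed the filter and 0 were called in any location comparison by limma, while 21 had an unadjusted p under 0.05 across locations. Over all genes that count was 2110 of 14745. Among the 20 genes of the merlin and Hippo list, all were tested and 0 called, with 4 at an unadjusted p under 0.05. The lowest adjusted limma p across locations was 0.21, for the Hippo kinase Lats2. Ezr, whose product ezrin is a relative of merlin, was the highest, with a median of 226 RPKM and a range from 29.6 RPKM in cheek 2 to 412 RPKM in the vestibular N tumor. Wwtr1, which encodes TAZ, followed with a median of 62.2 RPKM. Amot and Wwc1, both upstream regulators of the pathway, had the lowest medians, 3.38 and 4.39 RPKM. Wwc1 went from 0.0513 RPKM in retro-orbital 2 to 25.3 RPKM in the vestibular N tumor. In the vestibular N tumor 3 of these 4 genes were at their highest, but Wwtr1 was at its lowest, 28.2 RPKM. That tumor is 1 library, and the 4 genes are only the ends of the list by median.

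The 7 YAP and TAZ targets varied widely, with 0 called and 2 at an unadjusted limma p under 0.05. Ctgf, a secreted matricellular target, ranged from 22.6 RPKM in retro-orbital 2 to 528 RPKM in retro-orbital 3, around a median of 111 RPKM. Axl, a receptor tyrosine kinase, had a median of 46.6 RPKM, with its lowest value of 17.3 RPKM in the vestibular N tumor. Ankrd1 was lowest in this list, at a median of 2.28 RPKM, followed by Ajuba at 9.08 RPKM. The median difference of the list, meninges minus cheek, was 1.24 on the log2 scale beside 0.16 over all genes. It was -0.05 for meninges minus retro-orbital and -0.71 for cheek minus retro-orbital, beside 0.13 and -0.02 over all genes. The targets did not share a direction: meninges minus cheek was -2.63 for Ankrd1 and -1.34 for Cyr61 (Cyr61 chosen after its value was seen).

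The RAS list, which includes the targets and partners of Lztr1 and Nf1, held 19 genes, all at 1 RPKM or more in every tumor. Their summed level differed little, from 414 RPKM in meninges 3 to 504 RPKM in cheek 3. Cul3, the ligase scaffold that Lztr1 binds, was the highest, at a median of 67.9 RPKM, and had the lowest adjusted limma p of the list across locations, 0.33. Rras followed at 54.2 RPKM. Mras (4.44 RPKM) and the exchange factor Sos1 (7.01 RPKM) had the lowest medians. The 8 ERK-induced feedback genes, which report signalling downstream of RAS, were more variable. Their sum was 72.2 RPKM in retro-orbital 4 and 313 RPKM in the vestibular N tumor. The phosphatase Dusp6, at a median of 39.9 RPKM, reached 108 RPKM in the vestibular N tumor, and Spry1 (median 31.9 RPKM) went from 3.78 RPKM in retro-orbital 1 to 60.7 RPKM in retro-orbital 3. Dusp4 and Phlda1 were lowest, with medians of 3.82 and 1.88 RPKM. In this list 0 of 8 were called and 1 had an unadjusted limma p under 0.05, as did 2 of the 19 RAS genes.

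The list of 13 other suppressors of nerve sheath or meningeal tumors was at 1 RPKM or more throughout, in every gene and tumor, and 0 were called, with 1 at an unadjusted limma p under 0.05. Prkar1a, a regulatory subunit of protein kinase A, was the highest at a median of 106 RPKM, with 217 RPKM in meninges 2. Smarce1, a SWI/SNF subunit whose loss is known from meningiomas, had its highest value of 93.7 RPKM in meninges 1, the tumor that was also highest for Nf2. Sufu, which restrains Hedgehog signalling, was the lowest at a median of 4.94 RPKM. It had the lowest adjusted limma p of the list, 0.32, and its highest value of 12.8 RPKM was again in meninges 1. Tsc1 was next, with a median of 7.14 RPKM. Smarcb1, with its median of 4.61 RPKM, thus lay below the median of each of these 13 genes.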

How the data were processed

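RNA of 12 frozen tumors was extracted with the RiboPure kit, depleted of ribosomal RNA and made into TruSeq Stranded libraries. The authors aligned reads to mm10 with STAR, counted uniquely mapped reads per RefSeq gene with HTSeq and deposited RPKM, 1 value per gene and tumor. Of the 24060 rows, 27 had their gene symbol turned into a date and are not named. The submitters' processing notes also name bcl2fastq 2.17, edgeR and limma, with no role. Each RPKM step is worth 1 fragment, which gave totals of 13206168 to 57128422 fragments (median 27929720.5). These inferred totals are not the sequencing depth of the paper, whose range of reads per sample is higher at both ends and narrower in proportion. Which reads the totals include is not stated. The fragment counts and counting intervals rest on them.

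Locations were compared with limma 3.58.1 in R 4.3.3 on log2(RPKM + 1) (pseudocount 1; trend and robust options on). Genes entered with 1 RPKM or more in 3 or more of the 10 fitted tumors, with Benjamini-Hochberg adjustment over all genes and a threshold of 0.05. The vestibular N and trigeminal N tumors, 1 each, entered no location test. Fold changes on this scale understate changes of low genes. Correlations used 100000 resamples, two-sided, and the order test all 4096 sign patterns (Python 3.11.15, numpy 2.4.6, scipy 1.17.1). Scripts were tested on simulated data. Named genes were the members, the 2 highest and 2 lowest medians of each list, called list genes, the 3 genes most like each member and those overlapping one. Other marker genes in the comparison of meninges with cheek were named after their values were seen. The members and lists were chosen with earlier results of these data known. The labels do not say whether tumors came from separate animals, and 3 identifiers occur in 2 titles each, so p-values measure the spread between these tumors. Alternatives covered the pseudocount, filter, normalization, prior, each tumor left out, 1 tumor per identifier and, added later, the identifier as a block. Promoter windows are from RefSeq (GRCm38.p6), found for 4 of 4 members, and gene positions from GENCODE M21.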

Additional observations from a re-analysis of the deposited data

How the results depend on the processing

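Under 18 of 19 alternatives of the location tests, 0 of 4 members were called in any of the 4 comparisons. The exception was the title identifier as a replicate block, added after seeing the data, which called 1 member, Nf2, across locations and 1, again Nf2, in meninges against cheek. It called 2802 genes across locations. The estimates of meninges against either other location were positive for each member under all 19 alternatives, but their sizes varied, for Nf2 from 0.01 to 0.90 against cheek and from 0.23 to 0.88 against retro-orbital and for Smarcb1 from 0.03 to 0.34 against retro-orbital. Cheek against retro-orbital changed sign for Nf2 under 3, for Lztr1 under 1 and for Nf1 under 3. The number of all genes called across locations, 6 in the reported test, was 10 with no filter on low values, 2 with at least 1 RPKM in every fitted tumor, 19 with a constant prior variance and 0 with 1 tumor per identifier. Leaving out single tumors gave 0 to 198 genes. It was 198 without cheek 1, 56 without retro-orbital 3, 14 without retro-orbital 1, 3 without meninges 3 and 0 without cheek 2, cheek 3 or meninges 1, so the share of called genes rests on single tumors. The cause was not tested. Over the 14 alternatives of the order test, 5 or 6 of 6 pairs passed. Correlations between members gave 0 called pairs under each of 15 alternatives, and those with marker lists gave 0 or 1 when single tumors were left out. With 3 or 4 tumors a location, the half-widths of the 95% intervals of the location differences were 0.49 to 0.84. Smarcb1, with as few as 70 fragments, carries the largest counting error.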
